A study of Homo sapiens with 2 samples.

Results

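The 8 genes described here encode splicing proteins: the SR proteins SRSF1, SRSF2 and SRSF3, and the core spliceosome proteins PRPF8, SNRNP200, EFTUD2, SF3B1 and SF3B2. They were defined by hg19 intervals rounded to whole kb, on the strand of each gene, and a site belonged to a gene when it overlapped that interval on that strand. Replicate 1 had 37 such sites of 16964 in its list, and replicate 2 had 126 of 55830. The sites come from PAR-CLIP of SOX2, a transcription factor. In this method 4-thiouridine built into RNA by living cells is crosslinked by ultraviolet light to proteins that touch it, and short pieces of RNA recovered with the precipitated protein are sequenced. Both libraries are independent experiments of 1 group: HEK293T cells, an embryonic kidney line, transfected with a plasmid for FLAG-tagged SOX2, given 0.2 mM 4-thiouridine for 16 hours from 24 hours after transfection and exposed to ultraviolet light of 365 nm (0.4 J/cm2). Cell extracts were treated with RNase T1, an enzyme that cleaves RNA at guanosines. SOX2 was therefore introduced by transfection, and a library without it is not used here. RNA abundance was not measured, so a gene with many sites and a gene with much RNA cannot be told apart.

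Spliceosomes are RNA and protein machines that remove introns from precursor RNA. SR proteins pair RNA-recognition motifs with a stretch rich in arginine and serine, bind mostly within exons and help to recruit the machinery to nearby splice sites; several of them also regulate their own RNAs through exons that carry early stop codons. The core proteins examined belong to a pair of particles. PRPF8, SNRNP200 and EFTUD2 are U5 snRNP proteins: a scaffold of the catalytic centre, a helicase that unwinds U4 from U6 RNA, and a GTPase. SF3B1 and SF3B2 are subunits of SF3b in the U2 snRNP, which recognises the branch point of the intron.

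The intervals were chr17:56078-56085 kb for SRSF1, chr17:74730-74734 kb for SRSF2, chr17:1553-1589 kb for PRPF8, chr17:42927-42977 kb for EFTUD2, chr2:96940-96972 kb for SNRNP200 and chr2:198254-198300 kb for SF3B1, all on the minus strand, and chr6:36562-36573 kb for SRSF3 and chr11:65819-65837 kb for SF3B2 on the plus strand. In the GRCh38 annotation the 8 genes lie on the same chromosomes and strands. Exons, introns and site sequences are not given, because an hg19 annotation or genome is not used here; positions are distances from the 5′ end of the interval to the middle of the site, and since the edges are rounded they can include sequence outside the gene. In RefSeq for GRCh38, a microRNA gene (MIR636) lies in SRSF2, an annotated snoRNA in SF3B1 and in SF3B2, and a 7SL pseudogene in EFTUD2. LOC101929185 also overlaps SRSF1, and HIGD1B overlaps EFTUD2. The part of such nested or overlapping genes in the sites was not tested.

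All 8 genes had sites in both lists, which their choice with sites of both lists in view largely fixes. Within the intervals few sites lay on the strand opposite to the gene. The genes were chosen for sites on their own strand, so this too is partly fixed by the choice. The 37 and 126 sites (81.5 ± 62.9, SD, n = 2) stood against 2 sites on the opposite strand of the same intervals in replicate 1 and 0 in replicate 2. One of these, with a score of 14, lay at the 5′ edge of the SRSF1 interval, and the other, with a score of 20, lay in PRPF8. Within 2 kb outside the intervals, replicate 2 had 6 sites on the strand of the gene and 4 on the opposite strand. The only such site of replicate 1 was on the opposite strand. There SNRNP200 had an opposite-strand site beyond its 3′ edge in both lists (chr2:96939750-96939765, score 328, in replicate 1; chr2:96939751-96939767, score 129, in replicate 2), which is not counted for the gene.

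Each site carries a score from the authors, a whole number that starts at 5. Its meaning is not stated in the labels or headers. The median score of the splicing-gene sites was 69 in replicate 1, where the whole list had 26, and 29.5 in replicate 2, where the whole list had 19. Scores of at least 100 were held by 11 of the 37 sites (29.7%) in replicate 1, compared with 14.8% of that list, and by 22 of the 126 (17.5%) in replicate 2, compared with 7.34%. The highest score was 350 in replicate 1 and 397 in replicate 2, both in SF3B1 and far below the strongest sites of the whole lists, which scored 1560568 and 702704. The score sums of 3525 and 7964 were 0.0657% and 0.153% of the list totals (0.110% ± 0.0620, SD, n = 2). When the 10 strongest sites were left out of the totals, they were 0.163% and 0.234% (0.199% on average), so the lists lay closer together. Median site length was 15 nt in replicate 1, with 16 nt over its whole list, and 17 nt in replicate 2, as over its whole list. The longest, of 43 nt, was in SRSF1 in replicate 2.

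**Figure D1:**
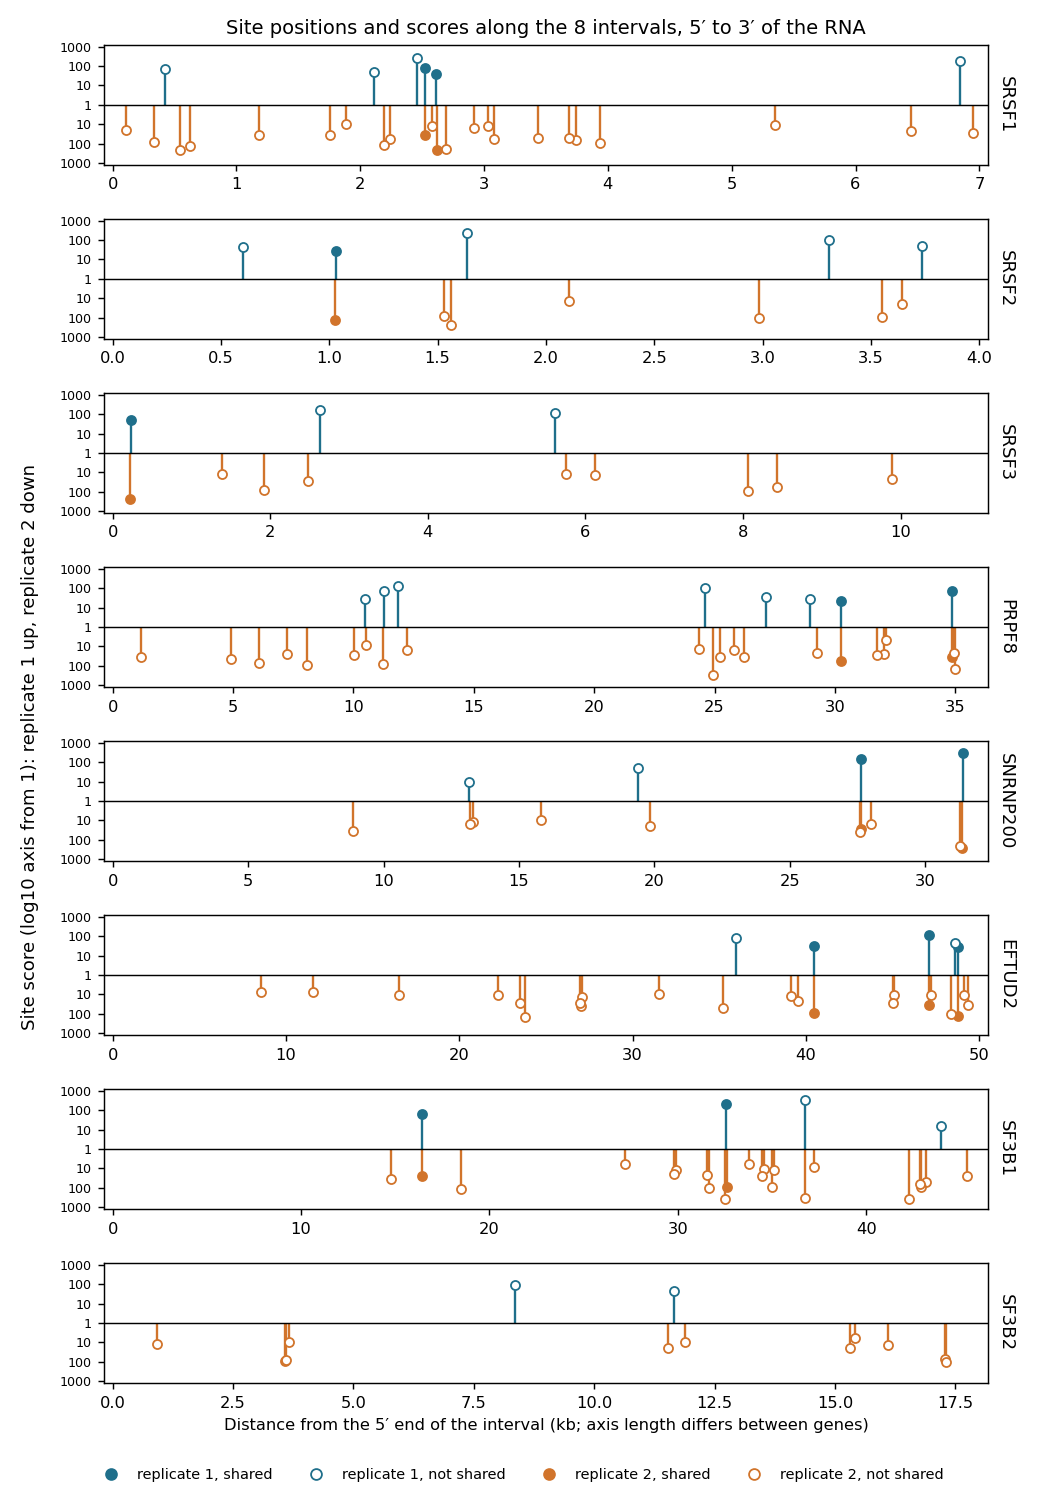
Sites along each interval, drawn 5′ to 3′ of the RNA (x axis, kb from the 5′ end of the interval) with their scores on a log10 axis, replicate 1 upward and replicate 2 downward. Filled points are sites that overlap a site of the other list. The 5′ ends of SNRNP200, EFTUD2 and SF3B1 hold no site of either list, over 8.86, 8.58 and 14.8 kb.

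The SR protein genes are short and held the most sites per kb of interval. Together the 3 SR intervals had 14 sites in replicate 1 (0.636 per kb) and 39 in replicate 2 (1.77 per kb), while the 5 core spliceosome intervals had 23 (0.126 per kb) and 87 (0.478 per kb). The difference averaged 0.902 ± 0.555 sites per kb (SD, n = 2) and had the same sign in both lists; it was 0.498 without SRSF1 and 1.56 without SRSF3. SRSF1, SRSF2 and SRSF3 took the upper 3 ranks of density in both lists, in differing order. Introns are counted in these lengths. Per kb of mature transcript the SR genes also exceeded the core genes, by 0.82 in replicate 1 and 1.48 in replicate 2. Sites were still counted over whole intervals, and the SRSF1 transcript used has 1513 nt, against an interval of 7 kb. This gave SRSF1 15.2 sites per kb in replicate 2, where EFTUD2 came next with 4.84. With both mature lengths and SRSF1 left out, the SR genes exceeded the core genes by 0.32 in replicate 1, while in replicate 2 the difference was -0.79. As a scale, 30300 windows of 10 kb on 1 strand of the nuclear chromosomes held a site of either list, and these averaged 0.0557 sites per kb in replicate 1 and 0.184 in replicate 2. All 8 genes lay above these averages, which their choice with sites of both lists in view largely fixes. The 90th percentile of the windows was 0.1 sites per kb in replicate 1, above SF3B1, and 0.4 in replicate 2, above SNRNP200.

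SRSF1, which binds purine-rich exonic enhancers and is the founding SR protein, had 6 sites in replicate 1 and 23 in replicate 2. This was 0.857 and 3.29 sites per kb, and the replicate 2 value was the highest of the 8 genes. The scores of its replicate 1 sites ranged between 37 and 250 with a median of 76, and those of replicate 2 between 10 and 216 with a median of 49. Sites were packed between 2.19 and 3.08 kb from the 5′ end, where replicate 2 had 9, and replicate 1 had 4 between 2.11 and 2.61 kb. The strongest replicate 1 site (chr17:56082539-56082552, score 250) and the strongest replicate 2 site (chr17:56082360-56082402, score 216) both lay in this stretch, 136 nt apart. The strongest replicate 1 site had no overlapping partner. The second strongest of replicate 1, with a score of 195, lay near the 3′ end of the interval at 6.84 kb. Its nearest replicate 1 neighbour was 4208 nt away, while a replicate 2 site with a score of 27 was 87 nt away.

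**Figure D2:**
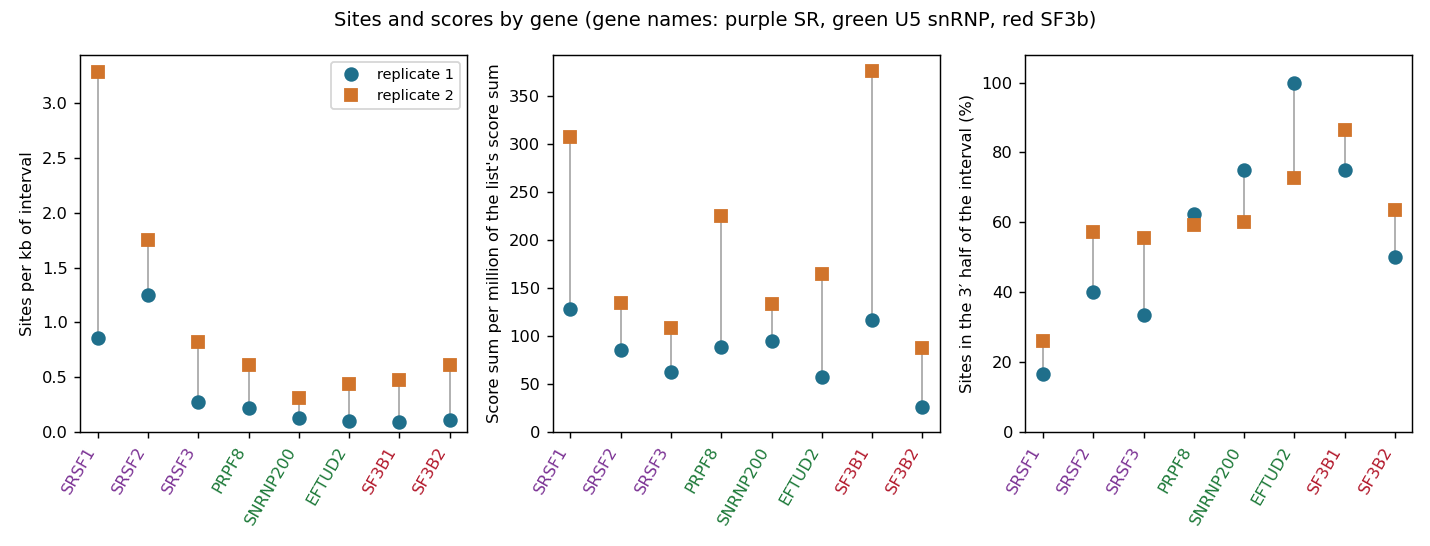
Sites per kb of interval, score sum per 1000000 of the list's score sum, and percent of sites downstream of the midpoint of the interval, for each gene (x axis); each point is 1 list, and grey lines join the lists. SRSF1 and SRSF2 lead in sites per kb, SF3B1 leads in score sum in replicate 2 with 375 per 1000000, and in replicate 2 the downstream percentages of SRSF2 and SRSF3, 57.1% and 55.6%, lie close to the 59.1% of PRPF8.

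The overlapping pairs of SRSF1 also fell in this stretch, 2.52 and 2.61 kb from the 5′ end. At chr17:56082378-56082395 the replicate 1 site scored 37 and lay inside the replicate 2 site, which scored 216. At chr17:56082468-56082489 the order was turned round: the site scored 83 in replicate 1 and 35 in replicate 2. The replicate 2 site lay inside that of replicate 1 in this second pair.

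SRSF2, an SR protein whose RNA-recognition motif reads both cytosine-rich and guanine-rich exonic motifs, had 5 sites in replicate 1 and 7 in replicate 2. Its ratio between the lists, 1.40, was the smallest of the 8 genes, where the members as a whole had 3.41. The strongest sites of the 2 lists scored nearly the same, 246 at chr17:74732356-74732369 in replicate 1 and 249 at chr17:74732429-74732445 in replicate 2, but did not touch: 59 nt lay between them. The single overlapping pair, at chr17:74732962-74732981 in replicate 1, scored 26 there and 134 in replicate 2, and both sites had the same 3′ end in the RNA. MFSD11 overlaps SRSF2 in RefSeq for GRCh38; no site lay on the opposite strand of the SRSF2 interval in either list.

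SRSF3, the smallest SR protein, which binds cytosine-rich motifs and also links splicing to RNA export, had 3 sites in replicate 1 and 9 in replicate 2. In replicate 1 the scores were 51, 161 and 121 in 5′ to 3′ order. Its overlapping pair lay at the very 5′ end, 0.23 kb into the interval in replicate 1 and 0.22 kb in replicate 2, at chr6:36562225-36562239 with a score of 51 and chr6:36562208-36562234 with 238. That was the strongest SRSF3 site of replicate 2 and the weakest of replicate 1. The strongest replicate 1 site, at chr6:36564628-36564641, had no replicate 2 site over it.

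In the U5 snRNP genes the sites were spread more thinly, with 17 in replicate 1 and 54 in replicate 2 over 118 kb. PRPF8 had 8 and 22 sites. They were spread on either side of a stretch of 12.1 kb without a site in either list, between 12.2 and 24.4 kb from the 5′ end. The strongest PRPF8 sites differed between the lists: chr17:1577147-1577160 with a score of 122 in replicate 1, upstream of that stretch, and chr17:1564039-1564055 with a score of 303 in replicate 2, downstream of it. Its overlapping pairs scored below these strongest sites. At chr17:1554129-1554143, near the 3′ end, the scores were 70 in replicate 1 and 35 in replicate 2, and at chr17:1558727-1558743 they were 22 and 58.

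SNRNP200 was the only one of the 8 genes in which the strongest sites of both lists overlapped. The replicate 1 site at chr2:96940608-96940629 scored 298 and lay within the replicate 2 site at chr2:96940607-96940637, which scored 287. Both lay 31.4 kb from the 5′ end of the 32 kb interval. The other shared site, at chr2:96944348-96944366, had the same 3′ end in the RNA in both lists and scored 148 in replicate 1 and 29 in replicate 2. These shared sites held 88.0% of the gene's score in replicate 1 and 45.7% in replicate 2. The other SNRNP200 sites of replicate 1 scored 51 and 10. A second strong site of replicate 2, chr2:96940714-96940740 with a score of 225, lay 76 nt upstream of it in the RNA and had no partner.

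EFTUD2 had 5 sites in replicate 1 and 22 in replicate 2, and 3 of them overlapped, the most of any of the 8 genes. At chr17:42929895-42929913 both lists had the same start and end, with scores of 115 in replicate 1 and 34 in replicate 2. It was the strongest replicate 1 site of the gene. The pairs at chr17:42928244-42928264 and chr17:42936521-42936535 scored 29 and 31 in replicate 1 and higher, 129 and 99, in replicate 2. All 5 replicate 1 sites lay at 36.0 kb or farther from the 5′ end, and the strongest replicate 2 site, with a score of 150 at chr17:42953231-42953249, lay farther upstream at 23.8 kb.

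SF3B1, the SF3b subunit that contacts the branch-point helix, had the strongest sites of the 8 genes. Its 4 replicate 1 sites scored 61, 200, 350 and 15 in 5′ to 3′ order. The 22 replicate 2 sites ranged between 6 and 397 with a median of 31, and the 3 strongest stood apart from the rest. These were 397 at chr2:198267506-198267522, 369 at chr2:198257726-198257756 and 364 at chr2:198263235-198263255. The last of these was separated by 16 nt from the strongest replicate 1 site, chr2:198263272-198263286 with a score of 350, and was not counted as shared with it. Pairs that did overlap were at chr2:198267421-198267437, with scores of 200 in replicate 1 and 91 in replicate 2, and at chr2:198283579-198283592, with 61 and 24.

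SF3B2, a partner of SF3B1 within SF3b, had the lowest score sum of the 8 genes in both lists, 138 and 454. Its 2 sites in replicate 1 scored 93 and 45, and its 11 in replicate 2 ranged between 6 and 103. None of them overlapped, and the strongest sites of the lists lay 8.95 kb apart. With so few sites an absence of shared ones is weakly determined: the 95% Wilson interval reached 65.8% in replicate 1 and 25.9% in replicate 2.

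Sites of the core spliceosome genes lay mostly in the downstream part of the intervals. Downstream of the midpoint were 17 of 23 sites in replicate 1 (73.9%, 95% Wilson interval 53.5 to 87.5) and 61 of 87 in replicate 2 (70.1%, 59.8 to 78.7). They carried 81.1% and 78.8% of the score of these genes. In the SR genes 4 of 14 sites in replicate 1 (28.6%, 11.7 to 54.6) and 15 of 39 in replicate 2 (38.5%, 24.9 to 54.1) were downstream of the midpoint. SF3B1 had 3 of 4 and 19 of 22 sites downstream, and its first 14.8 kb, 32.1% of the interval, held none. EFTUD2 had 5 of 5 and 16 of 22, SNRNP200 3 of 4 and 6 of 10, PRPF8 5 of 8 and 13 of 22, and SF3B2 1 of 2 and 7 of 11. Among the SR genes SRSF1 had 1 of 6 and 6 of 23, SRSF2 2 of 5 and 4 of 7, and SRSF3 1 of 3 and 5 of 9. The low SR value of replicate 2 was carried by SRSF1: SRSF2 and SRSF3 together had 3 of 8 sites downstream in replicate 1 (37.5%, 13.7 to 69.4) and 9 of 16 in replicate 2 (56.2%, 33.2 to 76.9), where PRPF8 had 59.1%. Neighbouring sites of 1 RNA are not independent, so these intervals cover counting error over sites only, and the difference between the gene classes was not tested. How exons are spread over the intervals was not measured.

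The independent experiments were then compared with each other. Of the 37 replicate 1 sites, 13 overlapped a replicate 2 site by at least 1 nt on the same strand (35.1%, 95% Wilson interval 21.8 to 51.2), where the background over the whole list was 21.3%. Of the 126 replicate 2 sites, 13 overlapped a replicate 1 site (10.3%, 6.13 to 16.9), where the background was 6.50%. Strong sites are shared more often in these lists, and the splicing-gene sites were stronger than most. When the share over the whole list was weighted to their score classes it came to 31.5% for replicate 1 and 9.74% for replicate 2, inside the intervals of the observed shares. Among scores of at least 100, 4 of 11 sites in replicate 1 (36.4%, 15.2 to 64.6) and 5 of 22 in replicate 2 (22.7%, 10.1 to 43.4) were shared, with backgrounds of 49.1% and 28.9%. The shares in these genes were therefore not distinguishable from those of sites of like score at this number of sites.

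**Figure D3:**
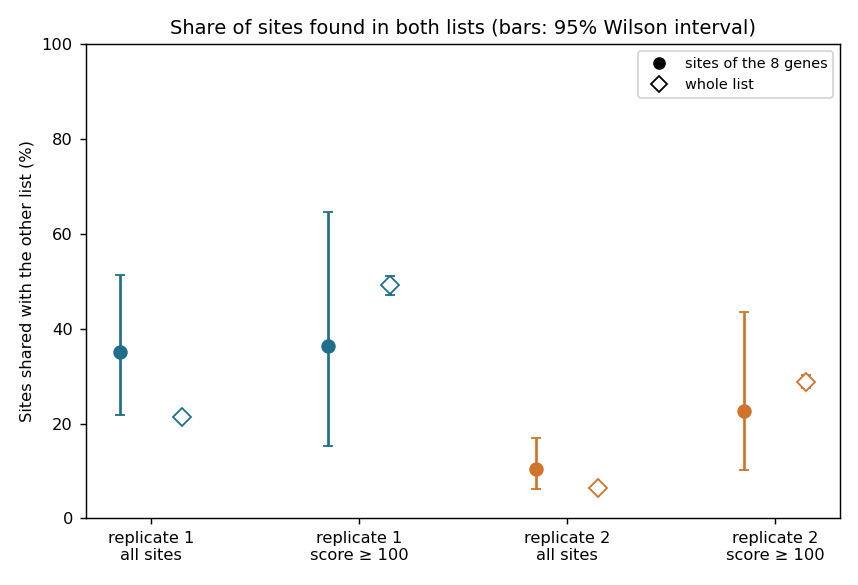
Percent of sites that overlap a site of the other list (y axis), for the 8 genes (circles) and the whole lists (diamonds), over all sites and over scores of at least 100; bars are 95% Wilson intervals. Over all replicate 1 sites the interval of the 8 genes runs from 21.8% to 51.2%, just above the whole-list value of 21.3%, and the intervals include the whole-list value in the other classes.

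Sites without an overlapping partner often had a site of the other list close by on the same strand. Of the 24 such replicate 1 sites, 23 (95.8%) lay within 1 kb of a replicate 2 site, where the whole list had 40.4%, and 9 (37.5%) lay within 100 nt, where the whole list had 16.2%. The exception was a site of SF3B2. Of the 113 such replicate 2 sites, 57 (50.4%) lay within 1 kb of a replicate 1 site and 14 (12.4%) within 100 nt, where the whole list had 24.4% and 6.06%. The genes were chosen with sites of both lists in view, so nearness on the scale of a gene is partly built into that choice. By gene, and with overlapping sites included, the share of replicate 2 sites that lay within 1 kb of a replicate 1 site was 82.6% in SRSF1, 100% in SRSF2, 31.8% in SF3B1 and 18.2% in SF3B2.

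**Figure D4:**
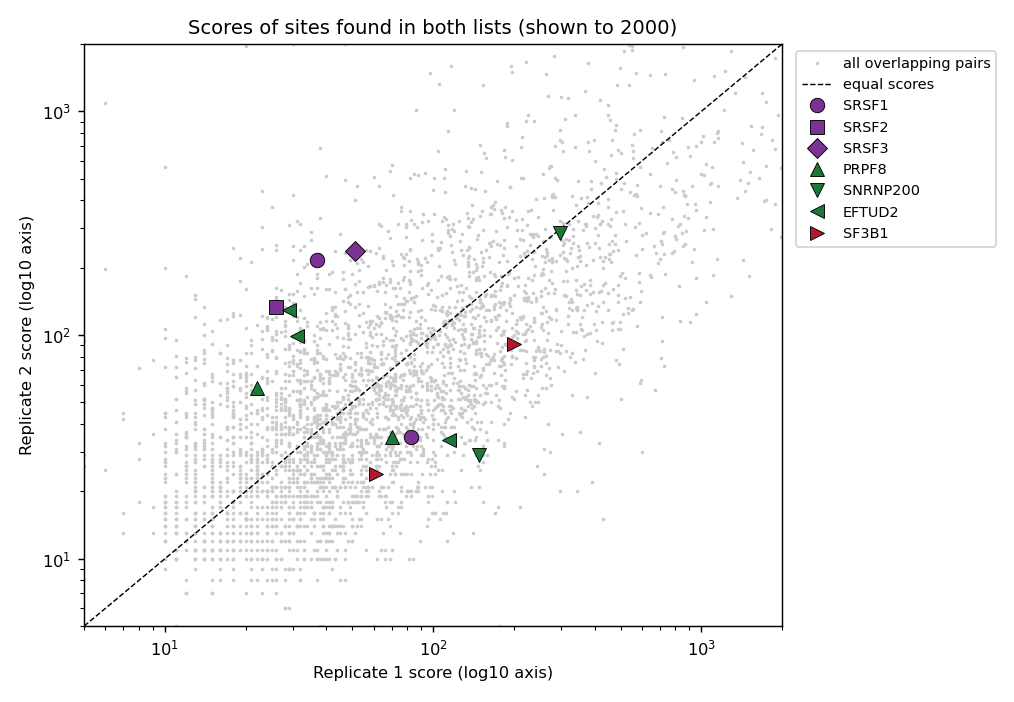
Scores of overlapping sites, replicate 1 on the x axis and replicate 2 on the y axis, both log10 and shown up to 2000; grey points are all overlapping pairs, coloured symbols are the 13 pairs of the splicing genes, and the dashed line marks equal scores. Only the SNRNP200 pair at 298 and 287 lies near the line among the coloured symbols.

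The scores of the 13 shared pairs differed widely between the lists. The median log2 ratio (replicate 1 over replicate 2) was 0.05 with an SD of 1.82 over pairs, with 7 pairs higher in replicate 1 and 6 higher in replicate 2. With pairs so evenly split the median was unstable, at -1.40 without the pairs of SNRNP200 or without those of SF3B1. Over the 3621 shared replicate 1 sites of the whole list the median was 0.21 and the SD 1.37. Scores differed by more than 4-fold in 5 of the 13 pairs (38.5%) and in 12.3% of the whole list. These 5 were the SRSF2 and SRSF3 pairs, 1 pair of SRSF1 and 1 of EFTUD2, all higher in replicate 2, and the SNRNP200 site with 148 and 29, higher in replicate 1. Each library gives a single score per site, so these ratios were not tested. In the direction of the RNA, the 5′ end was identical in 2 of 13 pairs (15.4%) and the 3′ end in 3 (23.1%), near the shares of 16.4% and 17.7% over the 3636 pairs of the whole lists.

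Over the whole lists replicate 2 had 3.29-fold as many sites as replicate 1, and over the 8 genes 3.41-fold. The ratio of replicate 2 to replicate 1 sites was 1.40-fold in SRSF2, 2.50-fold in SNRNP200, 2.75-fold in PRPF8, 3.00-fold in SRSF3, 3.83-fold in SRSF1, 4.40-fold in EFTUD2 and 5.50-fold in SF3B1 and SF3B2. The ratio of score sums was 0.968-fold over the whole lists and 2.26-fold over the 8 genes, in both cases smaller than that of site numbers. The whole-list sums include strongest sites of 1560568 in replicate 1 and 702704 in replicate 2. By gene the ratio of score sums lay between 1.36-fold in SNRNP200 and 3.29-fold in SF3B2. It was smaller than that of site numbers in every gene but SRSF2, where it was 1.52-fold. Across the 8 genes, score per kb in the lists had a Spearman's rho of 0.83 and sites per kb a rho of 0.79. Not divided by length, score sums had a rho of 0.74 and site numbers a rho of 0.49. Sites per kb of mature transcript had a rho of 0.52. These values describe genes that share the same pair of libraries and the same lengths. In score per kb of interval, introns included, SRSF1 and SRSF2 led in both lists, with 97.7 and 115 in replicate 1 and 228 and 174 in replicate 2. EFTUD2 was lowest in both, with 6.08 and 17.0. The spreads of SRSF1 and SRSF2 overlapped. SRSF3 came next in both lists, with 30.3 in replicate 1 and 51.0 in replicate 2. The highest core values were 15.8 in SNRNP200 in replicate 1 and 42.3 in SF3B1 in replicate 2. The SRSF3 mean was 40.6 ± 14.7 per kb (SD, n = 2), a spread that overlapped those of PRPF8, SF3B1 and SF3B2. Score per kb was higher in replicate 2 in every gene, and this shift is part of each SD. The median score of single sites was lower in replicate 2 in every gene but SRSF2. The 5 core genes had overlapping spreads, from 11.6 ± 7.75 in EFTUD2 to 28.0 ± 20.3 in SF3B1. Sites per kb of mature transcript gave another order of genes. There SRSF1 ranked 1 in both lists, and SRSF2 ranked 2 in replicate 1 and 6 in replicate 2. EFTUD2 ranked 3 in replicate 1 and 2 in replicate 2.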

How the data were processed

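SOX2 PAR-CLIP was measured in 2 libraries of HEK293T cells. Each has its own deposited list of sites with 6 columns and no header, made from 50 nt reads after 18 PCR cycles, per the labels' protocols. The deposited score per site is the authors' whole number without stated normalization. Bowtie 1.1.2, bcl2fastq and the build hg19 are named in the submitters' processing notes, without roles. The labels and files name no site caller, cutoffs or rule for multiply mapping reads. Read depth is unknown. The list score sums, 5365592 in replicate 1 and 5192778 in replicate 2, were used as a scale in its place. Whether they follow depth is unknown, because the score is not explained and the strongest single sites reach 1560568 and 702704.

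The members and gene classes were chosen with earlier results of these data known. All 8 members are named, with the strongest site per list and up to 5 overlapping pairs per gene. Sites were assigned and compared in Python 3.11.15 (numpy 2.4.6, pandas 2.3.3), with 95% Wilson intervals from scipy 1.17.1, which cover counting error over sites only; PCR reads without molecular identifiers are not independent. Where a site had several partners the longest overlap was used. Score classes were split at 10, 20, 50, 100 and 500. Mature lengths came from the longest principal transcript in GENCODE 29. Positions count from 1. The code was tested on simulated data and found every set site and pair. With 1 group there was no test between conditions. Alternatives changed the interval edges, the overlap rule, strand, minimum score, genes and replicates.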

Additional observations from a re-analysis of the deposited data

How the results depend on the processing

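The shares of shared sites stayed inside their main 95% intervals when 50% overlap of both sites was required, a gap of 50 nt was allowed, the strand of the partner was ignored or the intervals were widened by 2 kb. The mean number of sites over the 8 genes was 84.5 with widened intervals and 60.5 above the median score. The number of sites was 37 and 126 with either replicate left out, and the score share 0.0657% and 0.153%. Without the 10 strongest sites in the list total the score share was 0.163% in replicate 1 and 0.234% in replicate 2, 0.199% on average. Opposite-strand sites averaged 1 per list, 3.5 with widened intervals, 0.5 with midpoints inside and 0 above the median score, and 0 to 2 with a replicate left out. The median position, 64.6% of the interval, was 62.9% with widened intervals, 65.8% above the median score and 60.7% as the mean of gene medians, and 55.9% to 70.6% with a gene left out. The share of replicate 2 SR sites downstream of the midpoint, 38.5%, was 33.3% to 56.2% with a gene left out, the highest without SRSF1. The share of replicate 2 sites shared was 22.7% at scores of at least 100. The excess of SR over core genes in sites per kb was 0.498 to 1.56 with a gene or a replicate left out, the lowest without SRSF1 and the highest without SRSF3, and 1.15 per kb of mature transcript, but -0.24 there without SRSF1; the cause was not tested. The median log2 ratio, 0.05, was 0.53 with 50% overlap or above the median score, -0.06 with gaps, 0.55 per nt of site and -1.40 without SNRNP200 or without SF3B1. The alternatives on mature length, gene medians, scores of at least 100 and genes left out of positions and densities were chosen after seeing the data. The split at the interval midpoint, nearness to sites of the other list and the weighting by score class were not named in the plan made beforehand. No paired analysis was possible because both libraries belong to 1 group. Unknown depth limits all statements on weak or absent sites.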
